A study of Sus scrofa with 12 samples.

Results

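CD1 molecules, the costimulatory pair CD80 and CD86 with their receptor CD28, the myeloid receptor Myd-1 and the interferon regulatory factor IFNrf8 were followed in blood mononuclear cells of pigs of 3 SLA-DRB1 genotypes. They were found by their names on a spotted cDNA array: CD1a,b,d (entry AP10), CD80 (RG15), CD86 (RG16), CD28 (AP11), Myd-1 (AP12) and IFNrf8 (CY38). The array carried a second entry named CD28 (RG12), which is described beside the first, so the 6 names gave 7 of the 188 gene entries. All 7 passed the detection filter that left 185 entries for testing.

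CD1 molecules are relatives of MHC class I that display lipids instead of peptides. CD1a and CD1b present lipids to T cells and are known from dendritic cells, and CD1d presents them to natural killer T cells. CD80 and CD86 on antigen-presenting cells give the second signal that a T cell needs, and they are raised when such cells are activated. CD28 on the T cell receives that signal, and CTLA4 competes with it for the same ligands. Myd-1 is an older name for SIRP alpha, an inhibitory receptor of myeloid cells that binds CD47. IFNrf8, read here as interferon regulatory factor 8 (IRF8), is a transcription factor that directs the development of monocytes and dendritic cells in mice and humans.

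The animals were Yorkshire boars, 2 for each genotype of SLA-DRB1, the gene of the DR beta chain in pigs. The groups are called after their allele, 050502, 070701 or New, the last because it may not have been described before. Mononuclear cells were taken from blood on a density gradient and had no other treatment, so no group was stimulated. Cells of 1 genotype were hybridised against cells of another in 6 animal pairs, A and B for each of 3 comparisons, and each pair was run on 2 arrays with the dyes exchanged, giving 12 arrays. Which hybridisations used the same animal is not recorded in the labels, and each comparison shares its animals with both others.

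Median red foreground over the arrays was 382 to 2004 against a background of 96 to 320, and median green foreground was 498 to 2078.5 against 113 to 359.5. No pixel of a CD1, CD80, CD86, CD28, Myd-1 or IFNrf8 spot was saturated. Markers of the labelled cells differed in brightness: among the entries brighter than both negative-control DNAs were 3 of 10 T cell entries (TCRa, TCRb, TCReta), 2 of 4 monocyte and dendritic cell entries (TLR2, FcRg), 1 of 4 B cell entries (IgG2a) and 1 of 2 natural killer and cytotoxic entries (Granzyme). The defining markers CD3d, CD3g, CD14 and IgM were not among them.

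Spot brightness was set against DNA without a counterpart in pig cells, VapA of Rhodococcus equi and the plasmid pACYC177. Brightness is the mean log2 intensity of both channels after background correction. It depends on the probe as well as on the transcript, so it ranks spots and not transcript amounts. VapA spots averaged 9.18 and pACYC177 spots 9.98, so the plasmid was 1.74-fold brighter than VapA and brighter in all 24 channels.

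CD1a,b,d was the brightest of the 7 entries, with a mean of 10.58 (SD 0.70, n = 12 arrays) and a range from 9.13 to 11.77. It exceeded VapA in 24 of 24 channels, by 2.64-fold on average. It exceeded pACYC177 in 23 of 24 channels, by 1.51-fold (log2 difference 0.60, SD 0.34, n = 12 arrays). No other entry of the set passed both controls, while 49 of all 185 tested entries (26.5%) did.

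Myd-1 averaged 9.82, which was 1.55-fold above VapA, but pACYC177 was 1.12-fold brighter than Myd-1. The CD28 entry AP11 averaged 9.70, 1.43-fold above VapA, and exceeded pACYC177 in 5 of 24 channels. CD80 averaged 9.26 and lay level with VapA, at 1.06-fold, exceeding it in 14 of 24 channels and pACYC177 in 0. The second CD28 entry averaged 9.13 and exceeded VapA in 9 of 24 channels. IFNrf8 averaged 9.0 and exceeded VapA in 10 channels and pACYC177 in 1. CD86 was the dimmest at 8.62, with VapA 1.48-fold and pACYC177 2.58-fold brighter than it, and it exceeded VapA in 1 of 24 channels. The CD1a,b,d ratios thus came from spots above both bacterial DNAs, and those of the other 6 entries from spots dimmer on average than the plasmid.

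**Figure D1:**
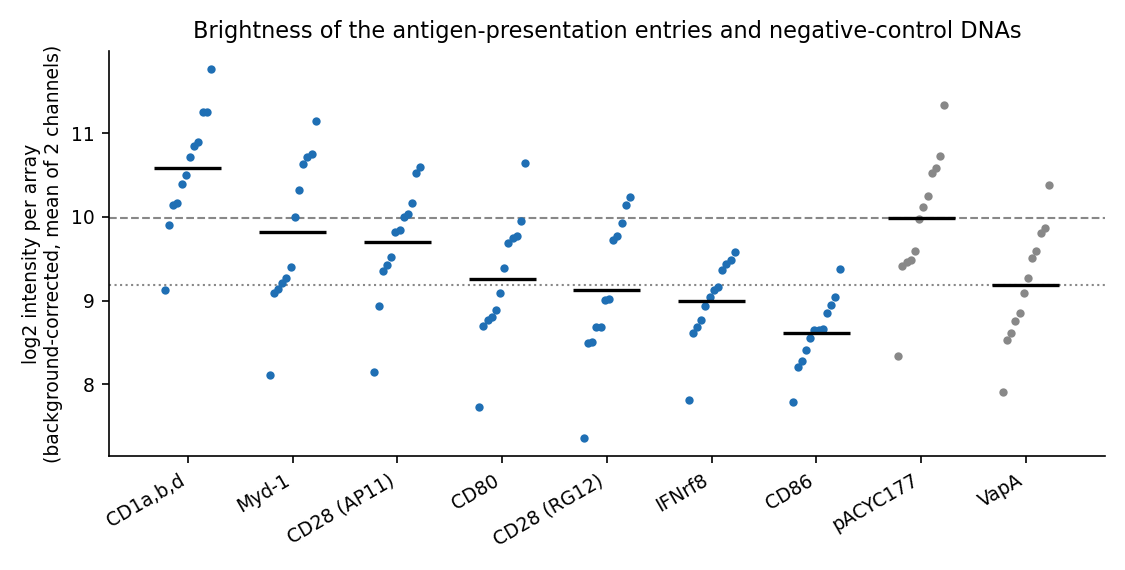
Brightness of each entry on each of the 12 arrays (blue points, log2 intensity, mean of both channels after background correction) with the negative-control DNAs in grey. Black bars are means over arrays, the dashed line is the mean of pACYC177 (9.98) and the dotted line that of VapA (9.18). CD1a,b,d has the highest mean (10.58) and CD86 the lowest (8.62).

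CD1a,b,d had, in the labelled directions, a ratio of one sign on all 4 arrays of each comparison, with the least signal in 070701 cells and the most in New. In 050502 against 070701 its log2 ratios were 0.52 and 0.58 on the arrays of pair A and 0.23 and 0.26 on those of pair B. All 4 arrays gave more signal in 050502, and the pair means were 0.55 and 0.24. The mean was 0.40, or 1.32-fold (limma 95% interval 0.16 to 0.64, adjusted p = 0.391), with an SD of 0.21 between the 2 pairs. In these bulk cells, fewer cells of a type and less RNA per cell cannot be told apart.

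The log2 ratios of CD1a,b,d in 070701 against New were -0.49 and -0.53 for pair A and -0.46 and -0.40 for pair B. The 4 arrays lay close together, all with more signal in New. The mean was -0.47 (SD 0.06, n = 2 animal pairs, 95% interval -0.71 to -0.23), which is 1.39-fold more in New, with limma adjusted p = 0.190. In a second limma fit the 3 comparisons were tied together by 2 genotype coefficients, so that they had to close around the loop. That fit gave -0.53 (SE 0.08, interval -0.72 to -0.34), or 1.45-fold more in New, with adjusted p = 0.0290. The call of the loop fit did not hold in 4 of the 6 refits that each left out 1 animal pair: adjusted p was 0.0604 without pair B of 050502 against 070701, 0.105 without pair B of 050502 against New, and 0.138 and 0.124 without pairs A and B of 070701 against New. It was 0.0138 and 0.0374 in the other 2, which left out pair A of 050502 against 070701 and pair A of 050502 against New. With pair A of 050502 against New turned, adjusted p was 0.0924.

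For CD1a,b,d the log2 ratios in 050502 against New were -0.22 and -0.22 for pair A and -0.39 and -0.21 for pair B. All 4 arrays gave more signal in New, and the first array of pair B stood apart from the other 3. The mean was -0.26 (SD 0.06 over the 2 pairs, limma adjusted p = 0.558), with an interval from -0.50 to -0.02. Pairs A and B of this comparison ran opposite ways over the array (r = -0.54 across 185 entries, which are not independent replicates), so its direction is not settled, although the dyes are stated in the labels. With pair A turned, the mean of CD1a,b,d became -0.04. The labels do not say which pair, if either, would have to be turned. Turning pair B instead gives a mean of the same size with the opposite sign.

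The negative controls had mean log2 ratios between -0.08 and 0.09 in the 3 comparisons, below the size of the CD1a,b,d means. Their single arrays ran from -0.21 to 0.04 in 050502 against 070701, from -0.33 to 0.06 in 050502 against New and from -0.02 to 0.17 in 070701 against New. In the first 2 comparisons the widest control array was thus about as far from 0 as the smaller CD1a,b,d arrays or farther. The gap between the arrays of a dye exchange was also small for CD1a,b,d, with a median of 0.05 against 0.16 over all 185 entries. Its 8 spots on an array had a median SD of 0.10, against 0.16 to 0.20 for the other 6 entries. Both comparisons set a bright entry against mostly dimmer ones. The same measures were not taken over the bright entries alone, so a small spread is not shown to be particular to CD1a,b,d. Summed around the loop, its ratios left 0.19 where exact closure gives 0, more than the median absolute sum of 0.11 over all entries (rank 132 of 185 from the tightest).

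**Figure D2:**
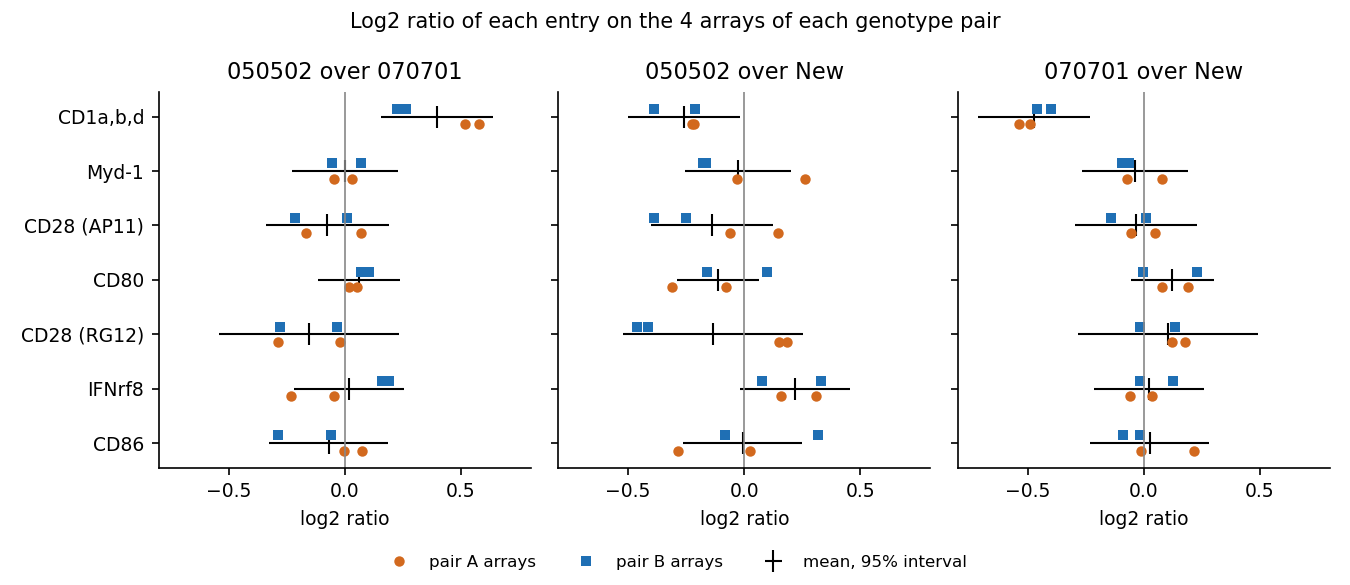
Log2 ratio of each entry (first-named genotype over the second) on the 4 arrays of each comparison: circles are pair A, squares pair B, and the black mark and line are the mean of the 2 pairs and its 95% interval from limma. The intervals of CD1a,b,d leave out 0 in all 3 panels before adjustment over entries, and those of the other 6 entries include 0.

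No entry of the set passed an adjusted p of 0.05 in the main fit. Over all 185 entries, 1.08% passed in 050502 against 070701, 0% in 050502 against New and 1.08% in 070701 against New. At an unadjusted limma p under 0.05, CD1a,b,d was the 1 of 7 in each comparison, where 8.11%, 8.11% and 7.57% of all entries passed. In the loop fit 1.08%, 0% and 2.7% of entries passed, and from the set only CD1a,b,d in 070701 against New. The other 4 that passed there were MHC-DQ, MHC-DY, MHC-DM and FcRN, the neonatal Fc receptor. The same direction on 4 of 4 arrays was reached by 3 of the 7 entries in 050502 against 070701 (CD1a,b,d, CD80 and CD28 RG12), by 2 in 050502 against New (CD1a,b,d and IFNrf8) and by 1 in 070701 against New (CD1a,b,d). Over all entries the shares were 29.2%, 9.19% and 29.7%, so 3 of 7 and 1 of 7 are not a result about the set. With pair A of 050502 against New turned, neither CD1a,b,d nor IFNrf8 kept one direction there, and 1 of 7 entries did (CD28 RG12), against 20.5% of all entries.

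Ratios larger than that of CD1a,b,d occurred among the bright spots, although as labelled its absolute ratio exceeded their median in each comparison. Among the 49 entries brighter than both controls it ranked 15, 13 and 9 by absolute log2 ratio in 050502 against 070701, 050502 against New and 070701 against New. Over all 185 entries it ranked 25, 30 and 11. With pair A of 050502 against New turned, its rank in that comparison was 43 of the 49 and 149 of the 185. The median absolute log2 ratio of the 7 entries was 0.07, 0.13 and 0.04 in the same order. The corresponding medians were 0.09, 0.10 and 0.08 over all 185 entries and 0.22, 0.16 and 0.18 over the 49 bright ones.

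Levels by genotype, taken from single channels after normalization between arrays, gave the same order for CD1a,b,d. In 070701 the 4 values, 1 for each hybridised pair, were 10.19, 10.32, 10.50 and 10.23. In 050502 they were 10.74, 10.56, 10.70 and 10.47, and in New they were 10.92, 10.77, 11.01 and 10.66. The means were 10.31 (SD 0.14), 10.62 (SD 0.12) and 10.84 (SD 0.16), each from 4 hybridised pairs of 2 animals. The range of 070701 overlapped that of 050502 only between 10.47 and 10.50 and did not reach that of New, while 050502 and New overlapped. These levels come from the same arrays as the ratios and add no independent replicate.

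**Figure D3:**
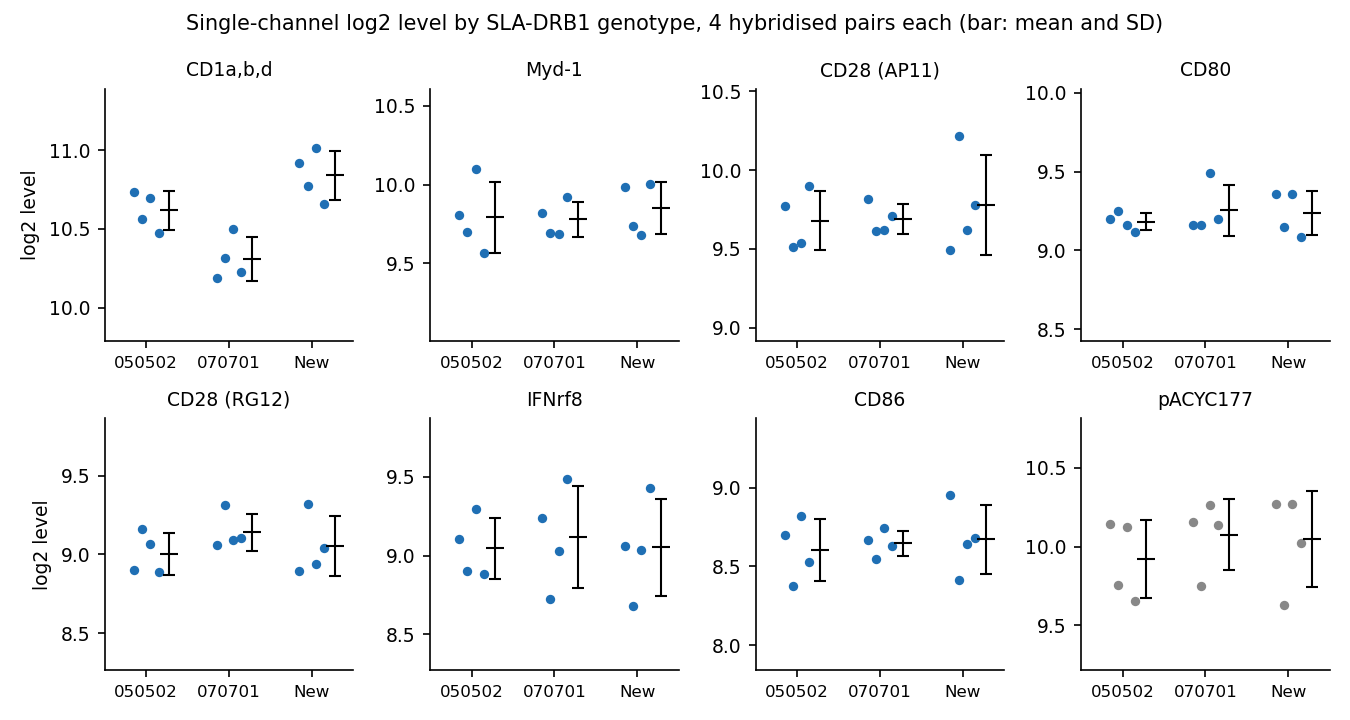
Single-channel log2 level of each entry in the 3 genotypes, 1 point for each of 4 hybridised pairs, with mean and SD as bars; pACYC177 is in grey and each panel has its own axis position with the same span. For CD1a,b,d the 070701 points (10.19 to 10.50) lie below all New points (10.66 to 11.01), and in the other panels the 3 genotypes overlap.

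The entry whose pattern over the 6 hybridised pairs was most like that of CD1a,b,d was MHC-DM (AP1), which exchanges peptides on class II molecules, with a cosine of 0.990 among 48 other bright entries. MHC-DQ (AP2), whose class II product shows peptides to helper T cells, followed at 0.947, and CH (COM2), which the files do not spell out, at 0.913. MHC-DY and MHC-DR stood at 0.889 and 0.810. The pair ratios share animals and arrays, so these values are a description over 6 points.

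The class II entries went the way of CD1a,b,d in all 6 hybridised pairs. In 050502 against 070701 the 4 class II entries had a median log2 ratio of 0.78, and 2 passed, MHC-DQ at 1.30 (SD 0.05, adjusted p = 0.00639) and MHC-DY at 1.12 (SD 0.16). MHC-DM stood at 0.44 (SD 0.33, adjusted p = 0.440) and MHC-DR at 0.04 (SD 0.003). The class II median was -0.80 in 070701 against New and the same 2 entries passed, with MHC-DQ at -1.37 (SD 0.16, adjusted p = 0.00590) and MHC-DY at -1.02 (SD 0.14). The ratio of CD1a,b,d was nearer to that of MHC-DM, at -0.59 (SD 0.02, adjusted p = 0.200), than to theirs. The summed class II level ran over the 4 hybridised pairs of a genotype from 14.66 to 14.97 in 070701, from 14.93 to 15.71 in 050502 and from 15.20 to 15.71 in New (log2). Whether class II and CD1 signal came from the same cells was not tested.

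**Figure D4:**
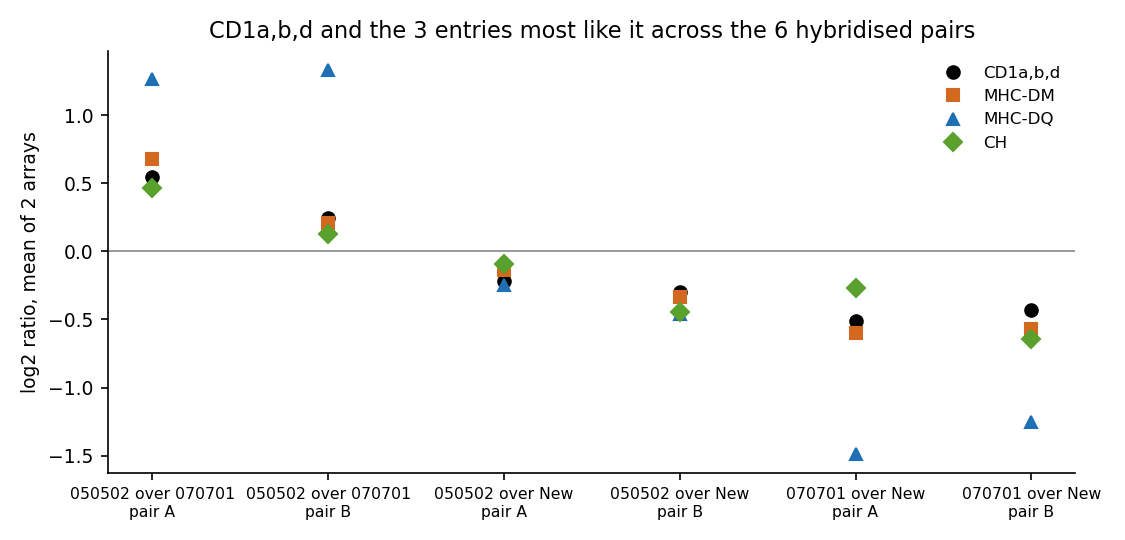
Log2 ratio of CD1a,b,d (black circles) and of the 3 entries most like it in each of the 6 hybridised pairs, each point the mean of 2 dye-exchanged arrays. All 4 entries lie above 0 in both pairs of 050502 over 070701 and below 0 in the other 4 pairs, and MHC-DQ spans the widest range, from -1.49 to 1.33.

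Markers of the cells that carry CD1 and class II were measured by few entries. The 4 monocyte and dendritic cell entries (CD14, TLR2, TLR4, FcRg) had ratios above 0 in 4 of 4 for 050502 against 070701 (median 0.25) and in 2 of 4 for 070701 against New (median 0.06), and 0 passed. CD14, the lipopolysaccharide co-receptor of monocytes, stood at 0.26 and 0.12. TLR2 stood at 0.87 (SD 0.35) and 0.39 (SD 0.47), and TLR4 at 0.24 (SD 0.14) and -0.004 (SD 0.09). FcRg, read here as a signalling chain of Fc receptors, stood at 0.03 (SD 0.08) and -0.43 (SD 0.32). It was the 1 of the 4 with an unadjusted limma p under 0.05, in 070701 against New only. The list was matched by name, and the Fc receptor entries FcRgIII and FcRI were not among the 4. FcRgIII, brighter than both controls, stood at 0.22 (SD 0.29) in 050502 against 070701 and 0.15 (SD 0.09) in 070701 against New. FcRI, not brighter than both, stood at -0.09 (SD 0.04) and 0.10 (SD 0.10). The summed level of the 4 ran from 12.08 to 13.60 in 050502, from 12.52 to 13.00 in 070701 and from 12.48 to 12.97 in New. In 050502 against New 2 of the 4 lay above 0 as labelled (median 0.02), and 4 of 4 with pair A turned (median 0.34). The part of monocyte and dendritic cell signal in the CD1 ratio was not tested.

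The 4 B cell entries (IgM, IgG2a, IgJ, CD72) lay below 0 in 4 of 4 for 070701 against New (median -0.28) and for 050502 against New (median -0.43), and in 2 of 4 for 050502 against 070701 (median -0.004), and 0 passed. IgM stood at -0.53 (SD 0.05) in 070701 against New and at 0.52 (SD 0.72) in 050502 against 070701, with its 2 pairs far apart in the second. IgG2a stood at -0.31 (SD 0.16) and -0.38 (SD 0.53) and IgJ at -0.02 (SD 0.002) and -0.09 (SD 0.29) in the same comparisons. Their summed level ran from 11.37 to 11.75 in 050502, from 11.57 to 11.87 in 070701 and from 11.75 to 12.14 in New. B cell ratios thus lay on the side of CD1a,b,d in 070701 against New. They also did so in 050502 against New as labelled, but with pair A turned 3 of 4 lay below 0 (median -0.25) and IgM stood at 0.28. The part of B cell signal in the CD1 ratio was not tested.

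The 10 T cell entries had 9 ratios below 0 in 050502 against 070701 (median -0.18) and 2 in 070701 against New (median 0.02), and 0 passed. Over all entries the medians were -0.004 and 0.01. TCRe, an entry that the list did not take in, stood at -0.05 (SD 0.08) and -0.13 (SD 0.12). TCRa stood at -0.61 (SD 0.36) and 0.49 (SD 0.18), CD3d at -0.15 (SD 0.17) and -0.17 (SD 0.02), and CD3g at -0.12 (SD 0.01) and 0.01 (SD 0.03). The summed T cell level ran from 13.66 to 14.26 in 050502, from 13.90 to 14.54 in 070701 and from 13.70 to 14.20 in New, ranges that overlap. Of the cytotoxic entries, Granzyme stood at 0.35 (SD 0.16) and -0.28 (SD 0.18) and FasL at 0.03 (SD 0.01) and -0.001 (SD 0.06). Their sum ran from 11.48 to 12.13, from 11.39 to 11.55 and from 11.57 to 12.10 in 050502, 070701 and New. The Granzyme ratios had the sign of CD1a,b,d in 050502 against 070701 and in 070701 against New. FasL had pair means of 0.04 and -0.04 in 070701 against New, so its sign there was not settled. In 050502 against New Granzyme stood at -0.04 (SD 0.09) and FasL at 0.01 (SD 0.14), or 0.06 and 0.10 with pair A turned. In that comparison 6 of 10 T cell entries lay below 0 (median -0.05), or 5 with pair A turned (median -0.02). The part of T cell and cytotoxic signal in the CD1 ratio was not tested.

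The costimulatory ligands CD80 and CD86 gave small ratios in every comparison. CD80 had log2 ratios of 0.02, 0.05, 0.10 and 0.07 in 050502 against 070701, all on one side of 0 and with a mean of 0.06 (SD 0.04, n = 2 animal pairs, limma adjusted p = 0.757). In 050502 against New it ran from -0.31 to 0.10, with a mean of -0.11 (SD 0.12, adjusted p = 0.602), or 0.08 with pair A turned. In 070701 against New it ran from -0.005 to 0.23, with a mean of 0.12 (SD 0.02, adjusted p = 0.800). The 95% interval of the last ran from -0.05 to 0.30. Around the loop the CD80 ratios left 0.30, the widest misfit in the set. Its level was 9.18 (SD 0.06) in 050502, 9.25 (SD 0.16) in 070701 and 9.24 (SD 0.14) in New.

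CD86 changed sign between arrays in all 3 comparisons. Its means were -0.07 (SD 0.15, adjusted p = 0.786), -0.01 (SD 0.17, adjusted p = 0.982) and 0.03 (SD 0.11, adjusted p = 0.997) for 050502 against 070701, 050502 against New and 070701 against New. With pair A turned, the mean in 050502 against New was 0.12. The intervals, in the labelled directions, ran from -0.32 to 0.19, from -0.26 to 0.25 and from -0.23 to 0.28. Its level was 8.61 (SD 0.20), 8.65 (SD 0.08) and 8.67 (SD 0.22) in 050502, 070701 and New, so the 3 genotypes did not differ beyond their spread. CD80 and CD86 shared the sign of their ratio in 3 of 6 hybridised pairs.

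The receptor CD28 was measured by both of its entries. In 050502 against 070701 AP11 gave -0.17, 0.07, 0.01 and -0.21, with a mean of -0.07 (SD 0.04, adjusted p = 0.770). RG12 gave -0.29, -0.02, -0.03 and -0.28, below 0 on all 4 arrays, with a mean of -0.15 (SD 0.001, adjusted p = 0.743). The pair means of RG12 coincided while the arrays within each exchange differed by up to 0.27, so that small SD does not describe its precision, and the interval of the fit ran from -0.54 to 0.23.

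Both entries split by animal pair in 050502 against New. AP11 gave 0.15 and -0.06 in pair A and -0.25 and -0.39 in pair B, with a mean of -0.14 (SD 0.26, adjusted p = 0.602). RG12 gave 0.18 and 0.15 in pair A and -0.41 and -0.46 in pair B, with a mean of -0.13 (SD 0.43, adjusted p = 0.703). Both CD28 entries thus had pair means below 0 in pair B only, and pairs A and B ran against each other over the whole array. With pair A turned, both pair means lay below 0 for each entry, and the means were -0.18 for AP11 and -0.30 for RG12. In 070701 against New the means were -0.03 (SD 0.04, adjusted p = 0.997) for AP11 and 0.10 (SD 0.06, adjusted p = 0.986) for RG12. The entries had the same sign in 4 of 6 hybridised pairs and 8 of 12 arrays. The levels of AP11 were 9.68 (SD 0.19), 9.69 (SD 0.10) and 9.78 (SD 0.32) in 050502, 070701 and New, and those of RG12 were 9.0 (SD 0.13), 9.14 (SD 0.12) and 9.05 (SD 0.19). The 3 genotypes overlapped in both.

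Other genes of T cell costimulation had medians near 0. The list held 18 genes, of which 5 were measured besides CD80, CD86 and CD28 (CD40, CD40L, CTLA4, CD27, CD5), and 0 of the 5 was brighter than both negative controls. Their median log2 ratio was -0.01, -0.004 and 0.02 in 050502 against 070701, 050502 against New and 070701 against New, next to -0.004, 0.002 and 0.01 over all entries, and 0 passed. The median in 050502 against New was -0.06 with pair A turned. CTLA4, the inhibitory counterpart of CD28 and its neighbour in the pig assembly Sscrofa11.1, stood at -0.01 (SD 0.20), -0.004 (SD 0.12) and 0.14 (SD 0.02). CD40, the receptor through which T cells license antigen-presenting cells, stood at 0.12 (SD 0.07), -0.02 (SD 0.12) and 0.002 (SD 0.05). Its ligand CD40L stood at -0.07 (SD 0.16), 0.01 (SD 0.09) and 0.02 (SD 0.02). The 2 adhesion entries, ICAM3 and CD44, lay between -0.08 and 0.08, and 0 passed.

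Myd-1 gave mean ratios near 0 in all 3 comparisons as labelled. In 050502 against 070701 its arrays gave 0.03, -0.05, -0.05 and 0.07, with a mean of -0.0003 (SD 0.01, adjusted p = 0.998). The arrays of 070701 against New gave 0.08, -0.07, -0.06 and -0.09, with a mean of -0.04 (SD 0.06, adjusted p = 0.997). In 050502 against New pair A gave 0.26 and -0.03 and pair B -0.17 and -0.18, with a mean of -0.03 (SD 0.20, adjusted p = 0.903). The intervals of the first 2 ran from -0.23 to 0.23 and from -0.27 to 0.19. Its level was 9.79 (SD 0.23), 9.78 (SD 0.11) and 9.85 (SD 0.17) in 050502, 070701 and New. With pair A of 050502 against New turned, the mean of Myd-1 in that comparison was -0.14. Myd-1 is a myeloid gene like CD14 and TLR4. Its mean ratios in 050502 against 070701 and in 070701 against New were smaller than those of CD1a,b,d, a difference that was not tested.

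IFNrf8 kept one sign over all 4 arrays in 1 comparison only, and did not pass there. In 050502 against New its log2 ratios were 0.16, 0.31, 0.33 and 0.08, all with more signal in 050502, where 9.19% of entries had 1 direction on all 4 arrays. The mean was 0.22, or 1.16-fold (SD 0.02, interval -0.02 to 0.46, limma adjusted p = 0.558), and it became -0.02 with pair A turned. In 050502 against 070701 the pairs disagreed, with -0.04 and -0.23 in pair A and 0.19 and 0.16 in pair B, and a mean of 0.02 (SD 0.22, adjusted p = 0.962). For 070701 against New the mean was 0.02 (SD 0.05, adjusted p = 0.997). The levels were 9.05 (SD 0.19), 9.12 (SD 0.32) and 9.05 (SD 0.31) in 050502, 070701 and New. Those means also take in the hybridisations of the other comparisons. Within 050502 against New the levels were 9.29 and 9.06 in pair A and 8.88 and 8.68 in pair B, with 050502 named first.

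Of the interferon genes, IRF1, IFNg and IFNgR were described beside IFNrf8 in 050502 against New and in 050502 against 070701, and none of the 3 passed an adjusted limma p of 0.05 in either. IRF1, an activator of interferon genes, stood at 0.09 (SD 0.11) in the first and -0.12 (SD 0.07) in the second. IFNg, interferon gamma, stood at 0.24 (SD 0.03) and -0.02 (SD 0.04), and its receptor IFNgR at 0.08 (SD 0.01) and -0.02 (SD 0.01). Of 9 cytokines of antigen-presenting cells, 8 lay above 0 in 050502 against New (median 0.18) and 6 in 050502 against 070701 (median 0.11), and 0 passed. The entries of the IL12 subunits, which pair to interleukin 12, stood at 0.18 (SD 0.05) and 0.41 (SD 0.26) in 050502 against New. With pair A turned they stood at 0.04 and 0.18, IFNg at 0.02, IFNgR at 0.01 and IRF1 at 0.08. IL18 stood at 0.36 (SD 0.79) as labelled, with its pairs far apart, and at 0.56 with pair A turned. Of these 9 cytokines, 1 was brighter than both controls. At an unadjusted limma p under 0.05, both IL12 entries and IFNg passed in 050502 against New, IL18 in 050502 against 070701, TCRa in 050502 against 070701 and in 070701 against New, TCReta in the first of these, and Granzyme in both. The costimulation, adhesion and B cell lists had 0 such entries, and in the loop fit 0 entries outside MHC class II passed an adjusted p of 0.05 in any of these lists.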

How the data were processed

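Spot intensity values (foreground and local background medians) and the percent of saturated pixels were deposited as scanned at 635 and 532 nm with GenePix Pro 6.0.1.25 and without normalization, per the file headers. The value table of the authors held uncentred log2 ratios (red to green) equal to the scanner's within 0.001, not turned for dye, and served as an alternative. Intensities were background-corrected (normexp, offset 50) and loess-normalized within arrays (limma 3.58.1, R 4.3.3), with control spots and spots not found at weight 0. Spots were averaged, ratios turned, and the arrays of a dye exchange averaged. Tested entries had a median spot over 2 SD above background, in either channel, on 6 or more arrays. The 6 ratios were fitted with lmFit and eBayes, 1 coefficient per comparison, 3 residual and 1.85 prior degrees of freedom. Each p-value is two-sided, with Benjamini-Hochberg adjustment over 185 entries. In the main fit, p-values and intervals rest on 1 residual variance per entry, pooled over the animal pairs of all 3 comparisons and moderated by eBayes. They do not measure the spread within a comparison alone. For CD1a,b,d the standard error was 0.09 in every comparison. Its SD between pairs was 0.21 in 050502 against 070701 and 0.06 in each of the other comparisons. The fit treats pairs as independent although they share animals. The SD of a ratio is between pairs and that of a level between hybridised pairs. Single-channel levels used Aquantile normalization. The number of animals, 2 for each genotype, limits the precision.

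Named were the entries of the set in every comparison, the 3 bright entries most like each entry brighter than both controls, and up to 3 genes of each list plus any that passed. FcRN, FcRg, FcRgIII, FcRI, TCRe and TCReta were named after their values were seen, and other list members beyond 3 are given by name only. The entries, lists and rules were chosen with earlier results of these data known. The class I list (6 entries, medians -0.07, -0.11 and -0.05 in 050502 against 070701, 050502 against New and 070701 against New) and the housekeeping list (3 entries, medians 0.03, -0.11 and 0.03) had 0 entries that passed in limma, and 1 each (LMP2 in the first comparison, ACTB in the third) at an unadjusted p under 0.05. Probe sequences, and the species and gene part they came from, are not given in the sources used here, so no sequence is printed. A further entry of the interferon list is not reported here. The procedure was tested on simulated data.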

Additional observations from a re-analysis of the deposited data

Results flagged for a closer look

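Dixon's test was applied to 42 groups of 4 values (the arrays of a comparison, or the hybridised pairs of a genotype), and 2 had a value far from the other 3, where chance gives about 1 group in 20. For CD1a,b,d in 050502 against New the first array of pair B gave a log2 ratio of -0.39, while the other 3 arrays lay between -0.22 and -0.21. That array had 115 of 185 entries detected in red and 77 in green. The first array of pair A of the same comparison had 90 in red and 172 in green, and its CD1a,b,d ratio of -0.22 did not stand apart. All other arrays had 171 or more in each channel. Both weakly detected arrays thus belong to the comparison whose direction is not settled, and a link was not tested. For CD80 the level of 070701 cells in pair A of 070701 against New was 9.49, while the other 3 hybridised pairs of that genotype lay between 9.16 and 9.20.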

How the results depend on the processing

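CD1a,b,d kept its sign in all 3 comparisons under the 29 alternatives, with log2 ratios of 0.23 to 0.55 in 050502 against 070701, -0.35 to -0.04 in 050502 against New and -0.58 to -0.25 in 070701 against New. None of the alternatives turned pair B of 050502 against New, which would have reversed the sign of CD1a,b,d there. Its kept sign in that comparison thus depends on which pair was turned. Of 585 ratios of the 7 entries over alternatives, 67 changed sign, all of entries that did not pass, and 5 passed, all of CD1a,b,d. Besides the loop fit (-0.53, limma adjusted p = 0.0290, 1 of 7 entries), it passed with scan date as a random block, at 0.39 (adjusted p = 0.00949) and -0.49 (adjusted p = 0.00125), 1 of 7 entries in both 050502 against 070701 and 070701 against New. In that fit both arrays of an exchange count as samples of their own. Of the hybridised pairs, pair A of 050502 against 070701 and pair B of 070701 against New were scanned on the same day, with CD1a,b,d at 0.55 and -0.43. The fit with the centred deposited table, the loop fit with a pair turned and the loop fits without a pair were added after the data were seen.

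Letters A and B recur in the labels, and deviations from the comparison means correlated between them (0.53, 0.62 and 0.43 over 185 entries), but nothing in the labels says that a letter marks the same animals. With the letter as a replicate block, CD1a,b,d stayed at 0.40, -0.26 and -0.47, with adjusted p = 0.186, 0.343 and 0.115, and no entry of the set passed.

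The number of entries passing over the whole array moved with the fit, from 2, 0 and 2 in 050502 against 070701, 050502 against New and 070701 against New. In 050502 against 070701 it was 1 with median centring and with the first or the second array of each exchange, 7 with the deposited table and 0 with that table centred, 4 with pair A of 050502 against New turned, 17 in the loop fit with that pair turned, 6 with scan date, and 0 to 18 with a pair left out. In 050502 against New it was 1 with the deposited table, 4 with pair A turned, 11 in the loop fit with it turned, and 0 to 19 with a pair left out. In 070701 against New it was 5 in the loop fit, 1 with the first or the second array of each exchange, 4 with the deposited table and 1 with it centred, 4 in the loop fit with the pair turned, 9 with scan date, and 0 to 7 with a pair left out, where the set gave 0 to 1 and CD1a,b,d -0.58 to -0.43. In 050502 against 070701 and in 050502 against New, the highest counts of the loop fit came without pair A of 050502 against New, or with it turned. In 070701 against New the highest, 7, came without pair A of 050502 against 070701. The number of entries of the set brighter than a negative control rose from 1 to 4 when either control sufficed.

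Small ratios changed sign in 050502 against 070701. CD86 became 0.00024 with median centring, 0.0075 with the second arrays, 0.12 with the deposited table and 0.013 with it centred. CD28 AP11 became 0.0075 with the deposited table. CD80 became -0.038 in the loop fit. Myd-1 became 0.0084 without background correction, 0.011 with the second arrays, 0.0028 in the loop fit, 0.031 with the deposited table and 0.0053 with scan date. IFNrf8 became -0.0090 without background correction, -0.035 with the second arrays and -0.00015 in the loop fit with the pair turned. With a pair left out the ranges were -0.10 to 0.086 for CD80, -0.17 to 0.035 for CD86, -0.034 to 0.038 for Myd-1 and -0.14 to 0.18 for IFNrf8.

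In 050502 against New, CD80 became 0.0086 with the second arrays, 0.097 with the deposited table, 0.082 with pair A turned and 0.12 in the loop fit with it turned. CD86 became 0.016, 0.12, 0.12 and 0.068 under the same settings and 0.017 with the deposited table centred. CD28 RG12 became 0.076 with the deposited table, and IFNrf8 became -0.015 with pair A turned. CD28 RG12 moved from -0.13 to -0.30 and Myd-1 from -0.03 to -0.14 with pair A turned. Myd-1 became 0.043 with median centring, 0.047 with the first arrays, 0.11 with the deposited table and 0.013 with it centred. With a pair left out the ranges were -0.20 to 0.076 for CD80, -0.13 to 0.12 for CD86, -0.32 to 0.042 for CD28 AP11, -0.44 to 0.17 for CD28 RG12 and -0.17 to 0.11 for Myd-1.

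In 070701 against New, CD28 AP11 became 0.0039 with median centring, 0.030 with the first arrays and 0.13 with the deposited table. Myd-1 became 0.0055, 0.0078 and 0.12 under the same settings. IFNrf8 became -0.036 with the first arrays and CD86 -0.050 with the second. With a pair left out the ranges were -0.032 to 0.13 for CD80, -0.052 to 0.10 for CD86, -0.087 to 0.0035 for CD28 AP11, -0.079 to 0.0035 for Myd-1 and -0.011 to 0.13 for IFNrf8. The causes of these sign changes were not tested; for entries dimmer than pACYC177, signal over background limits what a ratio can show.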
